A study of Mus musculus with 28 samples.

Results

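Skeletal muscle genes were examined across subcutaneous tumors and the cultured cancer cells that formed them. The members are 10 genes of the muscle fiber (Acta1, Actn3, Ckm, Mylpf, Tnnt3, Tnnc2, Myh4, Ttn, Atp2a1 and Mb), chosen by name. Of these, 8 had a row with their symbol among the 43143 rows of the expression table. Tnnc2 and Mb were not analysed here. The rows of Acta1, Actn3, Tnnt3, Myh4 and Atp2a1 stood for whole genes. The row of Ttn was the protein-coding transcript Ttn-211 of 24817 bases, that of Mylpf was the protein-coding transcript Mylpf-205 of 466 bases, and that of Ckm was the non-coding transcript Ckm-202 of 671 bases. These 3 values can therefore differ from the totals of their genes.

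The cancer cells were 3LL, a Lewis lung carcinoma line of the mouse, and RNA was sequenced from 12 libraries of cultured cells and from 16 tumors. The cells were wild-type (WT), KEAP1-KO, in which Cas9 had disrupted Keap1, the gene of the protein that holds the transcription factor NRF2 low, or DKO, in which Nrf2 had been disrupted as well in KEAP1-KO cells. The edited lines were grown from single colonies. All tumors grew for 10 days under the skin of male albino C57BL/6 mice that were 6 weeks old and had working immune systems. In Experiment A, WT cells were placed in the left flank and KEAP1-KO cells in the right, and in Experiment B, KEAP1-KO cells were placed in the left flank and DKO cells in the right. Each of the 7 groups had 4 libraries. Within an experiment genotype and flank changed together, so that they cannot be told apart. The labels state neither which tumors shared a mouse nor whether the cultures were grown separately, so p-values measure only the spread between these libraries. The libraries held 4222363 to 7524265 reads each. In the cultured cells, the Keap1 value averaged 9.45 ± 0.09 (SD, n = 4) in WT, 7.59 ± 0.07 in KEAP1-KO and 7.35 ± 0.08 in DKO libraries, in the order of their labels. Nqo1, a target gene of NRF2, averaged 9.01 ± 0.11, 12.45 ± 0.11 and 6.77 ± 0.09. All 8 endothelial genes on the list of that cell type were higher by limma in each of the 4 tumor groups than in the cultures of the same genotype.

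A muscle fiber shortens when myosin motors of the thick filament pull on actin of the thin filament. Calcium starts this by binding to the troponin complex, and an ATP-driven pump of the sarcoplasmic reticulum ends it by taking the calcium back up. Genes of this machinery are switched on together as muscle precursors fuse and mature, and fast and slow fibers use different versions of them. A sheet of skeletal muscle, the panniculus carnosus, lies in the skin of the mouse, above the muscles of the body wall.

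Values are log2(normalized count + 4), where a normalized count is the number of reads divided by a depth factor of the library. A value of exactly 2.0 therefore means 0 reads, and differences near that floor are understated. Throughout, tumors and cultures are named by group and replicate number, and the 4 values of a group are given in the order of the replicates.

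In culture, the members differed in level. Myh4 had 0 reads in the 12 cultures, and Tnnt3, Ckm and Atp2a1 had 5, 2 and 6 reads over all 12, so that nearly all of their reads came from tumors. Acta1, Ttn, Actn3 and Mylpf had reads in all 12 cultures. In the tumors, 5 of the 8 members (Acta1, Ttn, Myh4, Tnnt3 and Atp2a1) had their 3 highest values in DKO tumors 1, 2 and 3, a pattern shared by 1.01% of all rows. These 3 tumors were picked from the members' own values, so the share is a description and no test. DKO tumor 4 was near the floor for Myh4, Tnnt3 and Atp2a1 and did not share the pattern. The plot of each gene by library shows this gap inside the DKO group.

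**Figure D1:**
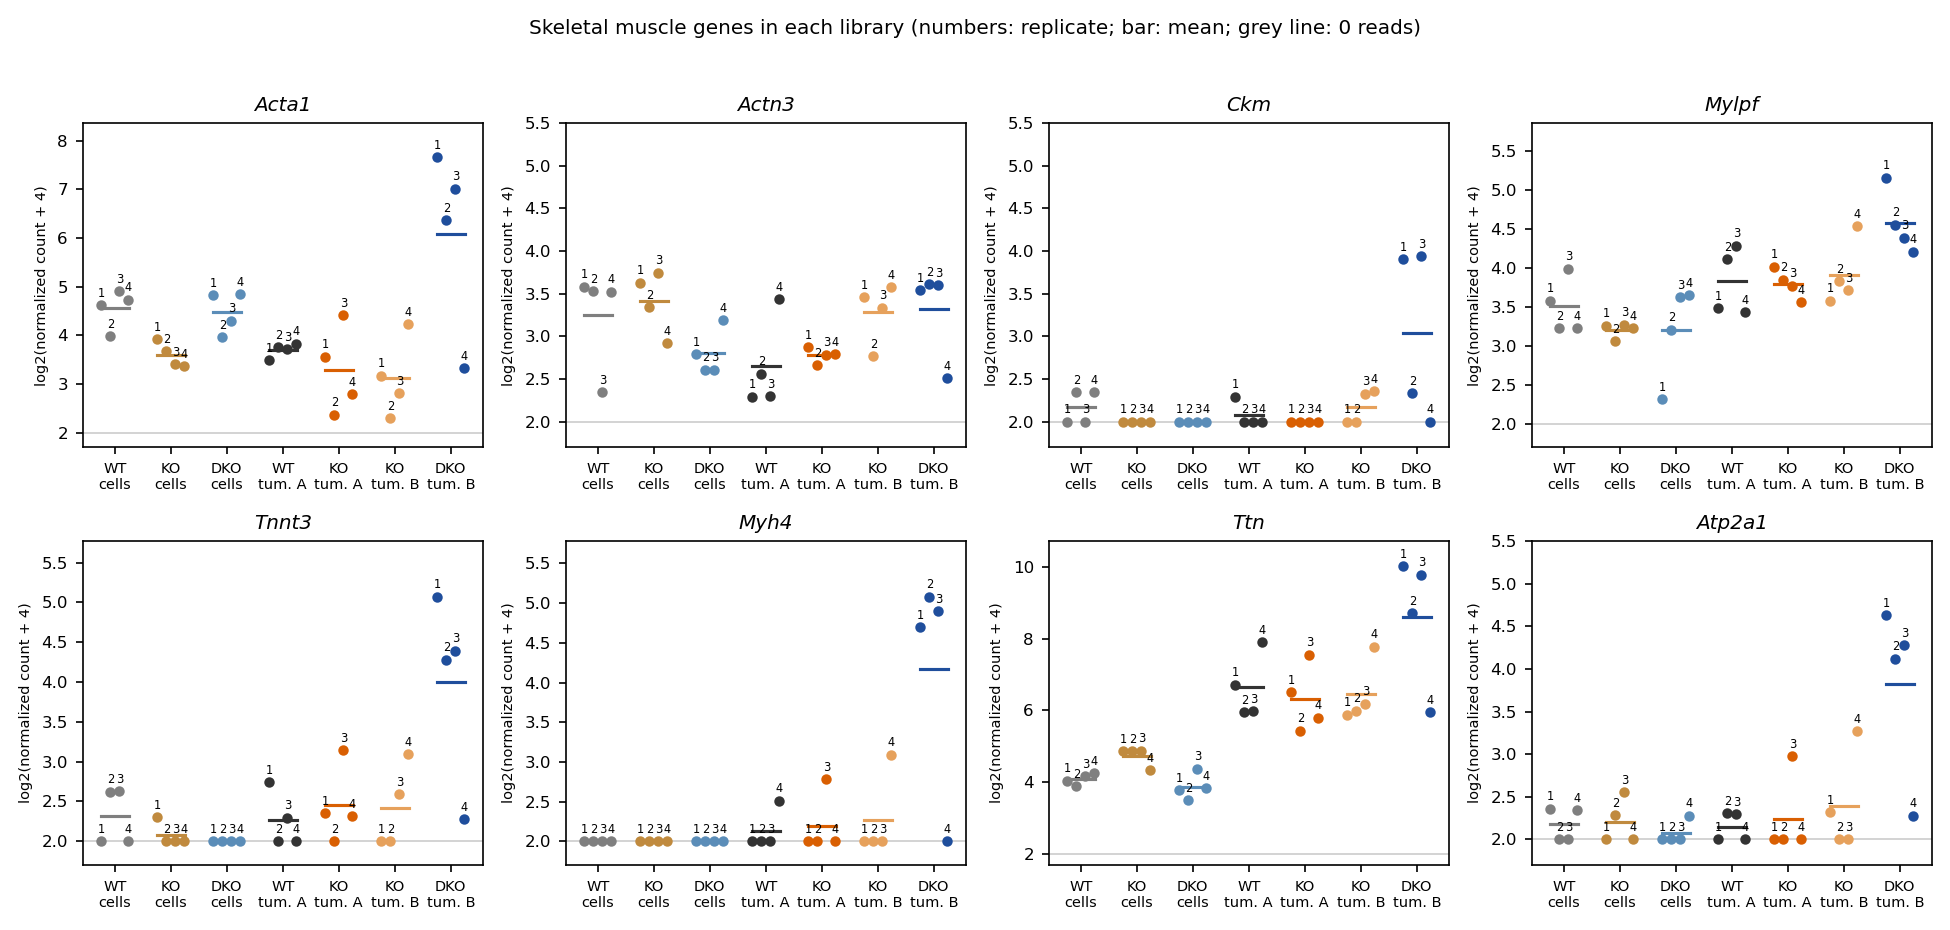
Each panel plots 1 skeletal muscle gene, with log2(normalized count + 4) on the vertical axis, the 7 groups on the horizontal axis, 1 numbered point per library and a bar at the group mean. DKO tumors 1, 2 and 3 sit above the other tumors for Acta1, Ttn, Myh4, Tnnt3 and Atp2a1, and Ttn alone is above all 12 cultures in each of the 16 tumors.

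Promoters were read for the members with an entry in the RefSeq table of GRCm38.p6, which were 6 of the 8. Each covers 250 bases before to 50 bases after the gene's start. The promoters of 4 members that were highest in the same 3 tumors are shown, since these genes moved together while their levels in culture ranged from 0 reads to reads in each library. They lie at chr8:123894726-123895025 on the minus strand (Acta1), chr11:67237562-67237861 on the plus strand (Myh4), chr2:76982498-76982797 on the minus strand (Ttn) and chr7:126463024-126463323 on the minus strand (Atp2a1). Capitals mark the matches to 4 motifs, searched on both strands: the E-box CANNTG, which myogenic factors such as MyoD can bind, the TATA box TATAAA, the CArG box of serum response factor and the site of MEF2.
Acta1: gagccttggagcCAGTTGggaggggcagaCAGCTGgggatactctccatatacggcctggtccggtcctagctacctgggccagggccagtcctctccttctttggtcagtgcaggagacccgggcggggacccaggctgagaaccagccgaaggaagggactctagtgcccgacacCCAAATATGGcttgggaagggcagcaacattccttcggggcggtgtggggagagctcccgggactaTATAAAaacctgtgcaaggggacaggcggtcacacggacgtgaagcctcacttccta
Myh4: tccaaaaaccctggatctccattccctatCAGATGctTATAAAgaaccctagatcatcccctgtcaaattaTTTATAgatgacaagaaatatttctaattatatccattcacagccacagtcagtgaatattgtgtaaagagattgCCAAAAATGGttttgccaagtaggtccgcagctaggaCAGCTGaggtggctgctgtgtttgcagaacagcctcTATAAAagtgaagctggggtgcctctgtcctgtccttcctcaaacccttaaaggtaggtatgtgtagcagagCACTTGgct
Ttn: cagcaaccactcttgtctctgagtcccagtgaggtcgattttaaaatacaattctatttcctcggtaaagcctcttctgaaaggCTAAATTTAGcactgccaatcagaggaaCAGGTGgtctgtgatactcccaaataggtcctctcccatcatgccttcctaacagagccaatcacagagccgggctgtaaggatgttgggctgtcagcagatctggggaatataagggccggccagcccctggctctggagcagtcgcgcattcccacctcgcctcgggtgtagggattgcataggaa
Atp2a1: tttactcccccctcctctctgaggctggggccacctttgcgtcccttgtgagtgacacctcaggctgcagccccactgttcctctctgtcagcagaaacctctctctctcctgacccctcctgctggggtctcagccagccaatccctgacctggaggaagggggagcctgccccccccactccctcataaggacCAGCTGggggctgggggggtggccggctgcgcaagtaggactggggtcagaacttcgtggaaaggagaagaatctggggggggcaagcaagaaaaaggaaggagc
All 4 promoters held an E-box, with 2 in Acta1, 3 in Myh4, 1 in Ttn and 1 in Atp2a1, but 72.3% of the 32851 promoters of the same length did so too. A CArG box, held by 1.63% of promoters, was in Acta1 and in Myh4. A TATA box, held by 13.6%, was in the same 2 promoters, once in Acta1 and at 3 places in Myh4, of which 1 was on the opposite strand. A MEF2 site, held by 0.557%, was in Ttn. Of the promoters not shown, those of Ckm and Mylpf each held 1 E-box and none of the other 3 motifs. These matches describe letters in a window, and no binding was measured.

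Acta1 encodes skeletal muscle actin, the main protein of the thin filament, and it was expressed in culture. Its values were 4.62, 3.99, 4.91 and 4.73 in the WT cultures, 3.92, 3.67, 3.41 and 3.36 in the KEAP1-KO cultures, and 4.83, 3.96, 4.30 and 4.85 in the DKO cultures. In the WT tumors of Experiment A they were 3.48, 3.76, 3.72 and 3.83, all below the 4 WT cultures. The KEAP1-KO tumors had 3.56, 2.37, 4.42 and 2.79 in Experiment A and 3.17, 2.30, 2.82 and 4.22 in Experiment B, and thus overlapped those of the KEAP1-KO cultures. DKO tumors had 7.66, 6.36, 7.02 and 3.32. The first 3 DKO tumors were above every culture and every other tumor, whereas DKO tumor 4 was below all 4 DKO cultures. In reads, this was 181, 76 and 155 against 7.

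To set the tumors against the level of the cancer cells in culture, the mean of the cultures of the same genotype was subtracted from each tumor's normalized count of Acta1. The remainder was 179, 59.2 and 106 normalized counts in DKO tumors 1, 2 and 3 and -13.1 in DKO tumor 4. It was above 0 in 2 further tumors, by 9.20 in KEAP1-KO tumor A3 and 6.50 in KEAP1-KO tumor B4. In the other 10 tumors it was below 0, with the WT tumors between -13.0 and -10.0. Acta1 thus exceeded the mean of its own cultures in 5 of 16 tumors and was below that mean in the others. Cancer cells can change expression in the host, so the subtraction does not by itself part host RNA from cancer-cell RNA.

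Myh4 encodes the myosin heavy chain of the fastest fibers (type IIB), and it was the 1 member without a read in culture. Of the 16 tumors, 10 were also at 0. DKO tumors 1, 2 and 3 had 4.70, 5.08 and 4.90 (20, 29 and 32 reads), and DKO tumor 4 had 2.0. Outside the DKO group, 1 tumor in each group had reads: WT tumor A4 at 2.51, KEAP1-KO tumor A3 at 2.79 and KEAP1-KO tumor B4 at 3.09, from 2, 3 and 4 reads. The same 3 tumors had the highest Ttn value of their groups. DKO tumors 1, 2 and 3 held 89.5% of the normalized counts of Myh4 in the 16 tumors.

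Tnnt3, fast skeletal troponin T, ties the troponin complex to the thin filament. It had 5 reads over 12 cultures, and its values in the DKO tumors were 5.07, 4.28, 4.39 and 2.28. The next highest tumors were KEAP1-KO tumor A3 at 3.14 and KEAP1-KO tumor B4 at 3.09. WT tumors had 2.74, 2.0, 2.30 and 2.0, the remaining KEAP1-KO tumors had 2.0 to 2.59, and both spans overlapped those of the cultures.

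Mylpf encodes the fast regulatory light chain of myosin and was detected in each library. In culture it was 3.58, 3.23, 3.99 and 3.23 in WT, 3.26, 3.07, 3.27 and 3.23 in KEAP1-KO, and 2.32, 3.21, 3.63 and 3.65 in DKO libraries. In tumors it was 3.48, 4.12, 4.29 and 3.43 in WT A, 4.02, 3.85, 3.77 and 3.56 in KEAP1-KO A, 3.58, 3.83, 3.71 and 4.54 in KEAP1-KO B, and 5.16, 4.56, 4.39 and 4.21 in DKO B. Of the 16 tumors, 14 were above the 4 cultures of their genotype, the exceptions being WT tumors A1 and A4. Among the 8 members, this one had the smallest gap between DKO tumor 4 and the next DKO tumor, and DKO tumors 1, 2 and 3 held 32.2% of its tumor counts.

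Ttn encodes titin, the giant elastic protein that runs from the Z-disc to the M-line of the sarcomere. In culture it was 4.05, 3.89, 4.18 and 4.25 in WT, 4.86, 4.87, 4.88 and 4.33 in KEAP1-KO, and 3.78, 3.51, 4.38 and 3.83 in DKO libraries. In tumors it was 6.72, 5.96, 5.99 and 7.90 in WT A, 6.50, 5.44, 7.55 and 5.80 in KEAP1-KO A, 5.88, 5.99, 6.19 and 7.77 in KEAP1-KO B, and 10.01, 8.70, 9.78 and 5.95 in DKO B. Every tumor was above every culture, DKO tumor 4 included, which no other member did. In normalized counts, DKO tumors 1 to 4 had 1029, 413, 873 and 58.0. Ttn transcripts are also made in heart and, at low level, in other tissues, and this row is 1 transcript among many.

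Actn3 encodes the Z-disc actinin of fast fibers, and none of its values in tumors was above the highest culture. DKO tumors had 3.54, 3.61, 3.60 and 2.51, and KEAP1-KO tumors of Experiment B had 3.46, 2.76, 3.33 and 3.57. The 12 cultures spanned 2.35 to 3.75. DKO tumors 1, 2 and 3 were above the DKO cultures, the highest of which was at 3.19. The row had 73 reads over 16 tumors and 65 over 12 cultures, and how small a contribution of muscle could be seen at this depth was not tested.

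Atp2a1 encodes SERCA1, the calcium pump of the fast fiber's sarcoplasmic reticulum. It had 6 reads over the cultures, 19, 13, 19 and 1 reads in DKO tumors 1 to 4, and values there of 4.63, 4.12, 4.28 and 2.28. KEAP1-KO tumors B4 and A3 followed at 3.27 and 2.98. The other 10 tumors had 2.0 to 2.32, no more than the highest cultures.

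Ckm encodes the muscle creatine kinase, which restores ATP from phosphocreatine. Its non-coding transcript had 10, 1, 14 and 0 reads in DKO tumors 1 to 4, with values of 3.90, 2.33, 3.94 and 2.0. The other 12 tumors had 0 or 1 read each, and the cultures had 2 reads in all. DKO tumors 1 and 3 were thus high, while DKO tumor 2, high for Acta1, Myh4 and Ttn, was at the level of single reads.

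Because 5 of the 8 members were highest in the same 3 tumors, the tumors were also described one by one. The share of all 43143 rows that were above the 4 cultures of the same genotype was 36.4% to 39.6% in each of the 16 tumors. Of the 8 members, all were above them in DKO tumors 1, 2 and 3 (39.6%, 38.6% and 39.2% of all rows), against 3 members in DKO tumor 4 (39.5%). KEAP1-KO tumor B4 had 7 and KEAP1-KO tumor A3 had 6 (37.6% and 37.9%). The remaining 10 tumors had 2 to 4, a share near that of all rows. Summed over the 8 members, normalized counts were 1350, 579, 1093 and 81.9 in DKO tumors 1 to 4. They were 272 in KEAP1-KO tumor B4, 261 in WT tumor A4 and 225 in KEAP1-KO tumor A3, 53.2 to 120.0 in the other tumors and 26.3 to 55.3 in the cultures. Without Ttn, which gives most of these counts in the tumors, the sums were 321, 166, 220 and 23.9 in the DKO tumors, 57.6 in KEAP1-KO tumor B4 and 41.5 in KEAP1-KO tumor A3. WT tumor A4 then had 25.5, within the 15.2 to 41.2 of the cultures.

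The ratio of Ttn reads to Acta1 reads separated tumors from cultures. It was 0.4 to 3.86 in the 12 cultures and 5.19 to 64.0 in the 16 tumors, without overlap. The highest ratios, 64.0 in KEAP1-KO tumor B2 and 34.0 in KEAP1-KO tumor A2, rest on 1 Acta1 read each. The lowest tumor ratios were those of DKO tumors 1 and 2, at 5.19 and 5.28, followed by 6.10 in WT tumor A2, 6.5 in WT tumor A3 and 6.95 in DKO tumor 3. The ratio is in reads and not per length, so it compares libraries and not the 2 genes.

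Tumors were first compared with the cultures of their own genotype, to see which members were above the level of the cancer cells. In WT tumors of Experiment A, 1 of the 5 members that passed the filter on low values (a normalized count of 5 or more in 4 or more libraries) was higher, while 24.7% of all rows were called higher in that comparison. This was Ttn, which rose by 2.55 on the log2 scale (SE 0.62, limma with Benjamini-Hochberg adjustment, adjusted p = 0.001671, 4 against 4 libraries). Acta1 differed by -0.86 (SE 0.60, limma adjusted p = 0.2764).

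In KEAP1-KO tumors against KEAP1-KO cultures, Ttn was again the 1 member called, in Experiment A (1.58, SE 0.62, limma adjusted p = 0.04444) as in Experiment B (1.72, SE 0.62, adjusted p = 0.02976). The background of rows called higher was 23.9% in either experiment. Both comparisons use the same 4 cultures and are not independent. Neither Ttn call was stable. In Experiment A, limma's adjusted p was 0.1637 without KEAP1-KO tumor A3, 0.08553 without KEAP1-KO tumor A1 and between 0.06458 and 0.1024 without any 1 of the KEAP1-KO cultures. In Experiment B it was 0.128 without KEAP1-KO tumor B4 and 0.07403 without KEAP1-KO culture 4. After median centring the differences were 1.35 and 1.45, with adjusted p-values of 0.09209 and 0.07192.

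DKO tumors differed most from their cultures. Of the 5 members that passed the filter, 4 were called higher and none lower, while 27.6% of all rows were called higher and 15.9% lower. Atp2a1 passed the filter only through DKO tumors 1, 2 and 3 and KEAP1-KO tumor B4, with no culture above 1.89 normalized counts, so its place among the members tested came from the tumors in which it was high, and the count of 4 is a description and no support. Ttn rose by 4.74 (SE 0.62, limma adjusted p = 5.256e-07), Atp2a1 by 1.76 (SE 0.36, adjusted p = 0.0002631), Mylpf by 1.38 (SE 0.29, adjusted p = 0.0003008) and Acta1 by 1.61 (SE 0.60, adjusted p = 0.03179). Actn3 differed by 0.52 (SE 0.31, adjusted p = 0.1868). The median of the 5, Atp2a1 included, was 1.61, against 0.23 over all rows tested.

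Myh4 and Tnnt3 reached 5 normalized counts in 3 libraries (DKO tumors 1, 2 and 3) and Ckm in 2 (DKO tumors 1 and 3), where the filter asks for 4. They were tested in the fit without it, in which 24.6% of rows were called higher. In that fit 7 of the 8 members were higher, the exception being Actn3. Myh4 rose by 2.17 (SE 0.42, limma adjusted p = 0.0001276), Tnnt3 by 2.01 (SE 0.39, adjusted p = 0.0001371) and Ckm by 1.04 (SE 0.28, adjusted p = 0.004348). All 3 had 0 reads in the DKO cultures, so these fitted differences depend on the 4 added to each count. Against a floor of 3 reads over the 4 cultures, the mean normalized count of the DKO tumors was at least 26.4-fold higher for Myh4, at least 21.3-fold higher for Tnnt3 and at least 7.91-fold higher for Ckm. Myh4 and Ckm were nevertheless at 0 in DKO tumor 4.

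Single tumors carried part of these results. Without any 1 of DKO tumors 1, 2 and 3, the members called were Ttn (4.27, 4.71 and 4.35) and Mylpf (1.19, 1.39 and 1.44). Atp2a1 then no longer passed the filter and was not tested. Acta1 was tested and not called, with differences of 1.08, 1.51 and 1.30 and limma adjusted p-values of 0.1561, 0.06947 and 0.111. Acta1 also lost its call without DKO culture 2 (adjusted p = 0.08377) or DKO culture 3 (adjusted p = 0.06479), and with other scalings, at 1.37 after quantile normalization (adjusted p = 0.08067) and 1.24 after median centring (adjusted p = 0.1026), with a pseudocount of 1 (adjusted p = 0.07708) and in a fit of the 2 groups alone (adjusted p = 0.1274). Ckm lost its call after median centring (0.67, adjusted p = 0.06234) and in the fit of the 2 groups (adjusted p = 0.1265). Without DKO tumor 4, Acta1 differed by 2.53 (adjusted p = 2.582e-05), and Actn3 by 0.79 (adjusted p = 0.04421), past the threshold. That tumor was the lowest of its group for both genes, so leaving it out raises these differences by construction.

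**Figure D2:**
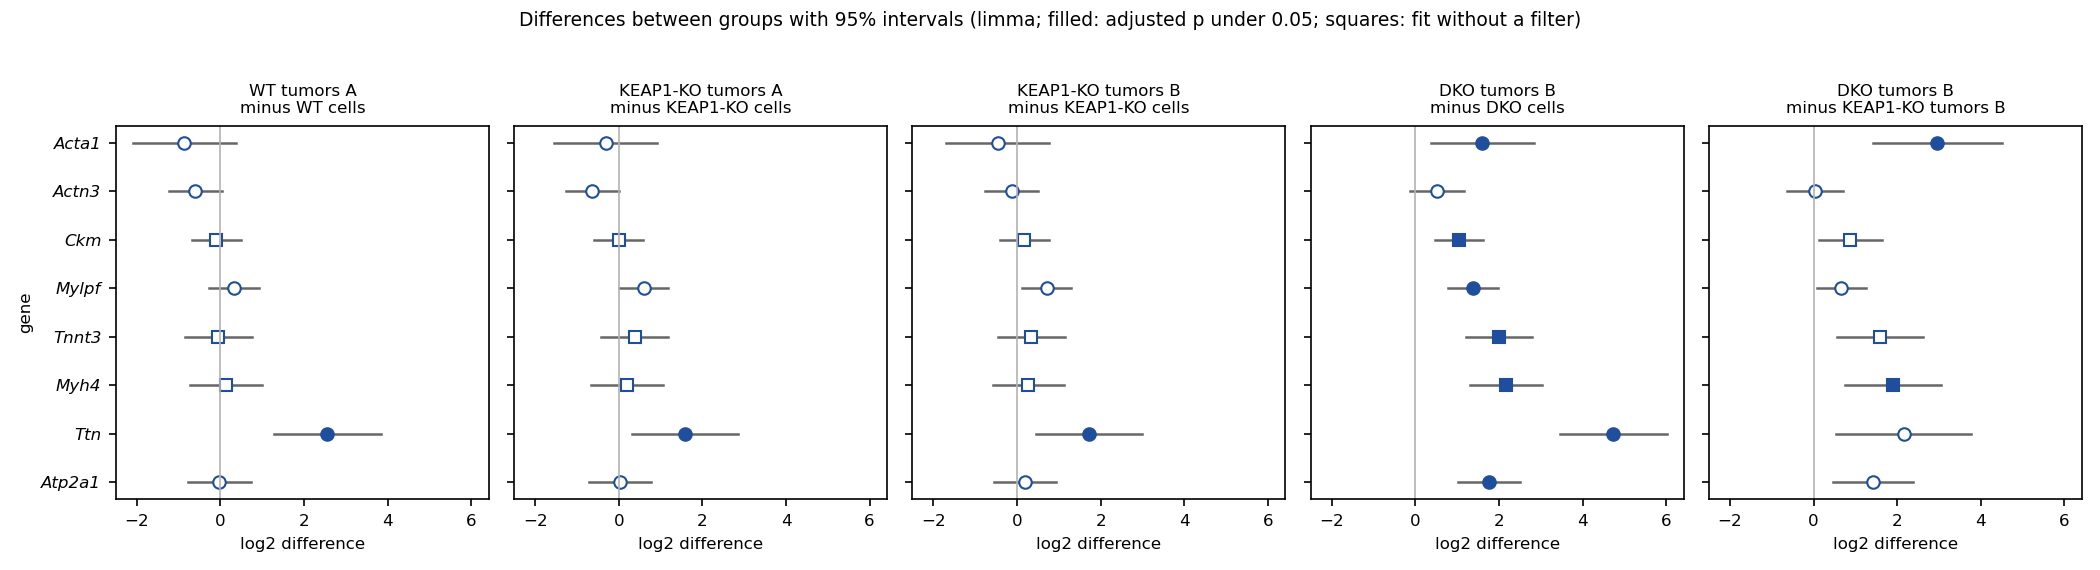
Each panel plots the difference between 2 groups of 4 libraries on the log2 scale (horizontal) for each member (vertical), as limma's estimate with its 95% interval; filled points have an adjusted p under 0.05, and squares come from the fit without a filter. In the panel of DKO tumors against DKO cultures 7 of 8 members are filled, with Ttn at 4.74, and Acta1 and Myh4 are filled in that of DKO against KEAP1-KO tumors.

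Next, tumors of different genotype were compared within an experiment, in a fit of the 16 tumors. Between KEAP1-KO and WT tumors of Experiment A, no member was called by limma, and none had an unadjusted p under 0.05 (0 of 5). The lowest adjusted p was 0.7948, while 13.1% of all rows were called in either direction. The differences ran from -0.41 for Acta1 (95% interval -1.95 to 1.13) to 0.19 for Tnnt3, and the intervals are wide, so that changes of over 2-fold in either direction remain possible for Acta1 and Ttn. Likewise, the KEAP1-KO tumors of the 2 experiments showed no member called (0 of 5 at an unadjusted p under 0.05, limma), with 0.164% of all rows called.

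When DKO tumors were set against the KEAP1-KO tumors of the other flank, all 8 members had a positive difference, but 1 of the 5 that passed the filter was called higher by limma and none lower, against 4.22% of rows called higher and 4.64% lower. Acta1 rose by 2.96 (SE 0.72, adjusted p = 0.01614). In the fit without a filter, where 3.29% of rows were called higher, Myh4 rose as well, by 1.90 (SE 0.54, limma adjusted p = 0.04863). The other members did not pass. Atp2a1 differed by 1.43 (adjusted p = 0.06254), Ttn by 2.15 (adjusted p = 0.1019), Tnnt3 by 1.59 (adjusted p = 0.06727 without a filter) and Mylpf by 0.66 (adjusted p = 0.1781). Ckm differed by 0.87 (limma adjusted p = 0.1893 without a filter) and Actn3 by 0.03 (adjusted p = 0.9749). Atp2a1 was in this test, too, only through the tumors in which it was high, and the median difference of the 5 that passed the filter, 1.43 against 0 over all rows tested, is its own value, so that neither is support.

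The outcome of this comparison depended on DKO tumor 4. The values of Acta1, Ttn, Myh4, Tnnt3, Atp2a1 and Ckm overlapped between the 2 groups through it, since it lay among the KEAP1-KO tumors, while DKO tumors 1, 2 and 3 were above all 4 of them for each except Ckm. Without DKO tumor 4, Acta1 (3.89, limma adjusted p = 0.0001422) and Ttn (3.04, adjusted p = 0.004371) were called. So was Atp2a1 (1.95, adjusted p = 0.002704), with the same limit from the filter. Without a filter, Myh4 (2.62, adjusted p = 0.0001134), Tnnt3 (2.16, adjusted p = 0.001641) and Ckm (1.22, adjusted p = 0.02898) were called too. As DKO tumor 4 was the lowest of its group for these genes, its removal raises the differences by construction, and the calls are no support. Conversely, no member that passed the filter was called without DKO tumor 1, without DKO tumor 3 or without KEAP1-KO tumor B2, where Acta1 had limma adjusted p-values of 0.05875, 0.05563 and 0.054. Myh4 was not called without any 1 of DKO tumors 1 to 3 or KEAP1-KO tumors B1 to B3 (adjusted p between 0.114 and 0.1374). In a fit of the 2 groups alone, limma's adjusted p was 0.06145 for Acta1 and 0.2091 for Myh4, and Myh4 was also not called with a pseudocount of 1 (0.1026) or without a trend (0.0577). In bulk RNA, more muscle tissue in a sample and more muscle RNA per cell cannot be told apart.

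In culture, where no host cells are present, 2 members differed between genotypes. From WT to KEAP1-KO cells, Acta1 fell by 0.97 (SE 0.27, limma adjusted p = 0.02829, 15.5% of all rows called in either direction), and their 4 values did not overlap. It differed by 0.89 between DKO and KEAP1-KO cells (SE 0.27, adjusted p = 0.06365), again without overlap. Ttn went the other way: it differed by 0.65 between KEAP1-KO and WT cells (adjusted p = 0.07477), and fell by 0.86 in DKO against KEAP1-KO cells (SE 0.22, adjusted p = 0.03057, 8.83% of all rows called), where DKO culture 3 at 4.38 and KEAP1-KO culture 4 at 4.33 overlapped. Of the 4 members that passed the filter in culture, the other 2, Actn3 and Mylpf, were not called in either comparison. Both calls are close to the threshold. That of Acta1 was lost without WT culture 1, 3 or 4 or KEAP1-KO culture 2, 3 or 4 (adjusted p from 0.05301 to 0.08166), and that of Ttn without KEAP1-KO culture 1, 2 or 3 or DKO culture 1, 2 or 4 (0.07232 to 0.08763).

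Whether the effect of genotype differed between tumors and culture was tested with an interaction term in limma. For KEAP1 (KEAP1-KO against WT, tumors of Experiment A against cells), none of the 5 members was called, and none had an unadjusted p under 0.05, while 5.38% of all rows were called. For NRF2 (DKO against KEAP1-KO, tumors of Experiment B against cells), none was called either, while 3.67% of rows were called. The unadjusted p was under 0.05 for Acta1 and Ttn, and also for Atp2a1, which passed the filter only through tumors in which it was high. Ttn, with an interaction of 3.02 (SE 0.88), had the lowest limma adjusted p of 0.05425. Without DKO tumor 4, the lowest of its group for Ttn, the interaction of Ttn was 3.90 (limma adjusted p = 0.0006459). Leaving out that tumor raises the interaction by construction, so this call is a description and no support.

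The rest of the muscle program was described with a list of other genes of fast or all skeletal muscle, of which 37 of 72 had a row. Together they summed to 1191, 798, 1124 and 466 normalized counts in DKO tumors 1 to 4 and to 535 to 697 in the other tumors, so that DKO tumor 4 was the lowest of the 16. Beside 1.01% of all rows, 13 of the 37 had their 3 highest values in DKO tumors 1, 2 and 3. Among these were Myh1, the heavy chain of type IIX fibers, at 6.84, 5.32, 6.48 and 2.0 in DKO tumors 1 to 4, and Neb, the ruler of the thin filament, at 7.02, 5.36, 7.07 and 3.19. Xirp2, which binds actin at muscle attachment sites, was at 7.11, 5.77, 6.81 and 2.89, and Des, the intermediate filament of muscle, at 6.35, 5.43, 6.03 and 4.14. In a split by the level in culture, made after the data were seen, the pattern held for 11 of the 16 genes with a mean under 1 normalized count in the cultures and for 2 of the 21 with more, and for 3 of 4 and 2 of 4 members split in the same way. The share of all rows in each class was not computed, so the split cannot be called particular to muscle genes.

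The 6 genes of this list with the highest mean over tumors were all expressed in culture, and none had its 3 highest values in DKO tumors 1, 2 and 3. Fbxo32, a ubiquitin ligase of muscle wasting, was at 7.44, 7.40, 7.37 and 7.23 in DKO tumors 1 to 4, and Klhl41, a sarcomere-associated Kelch protein, at 6.21, 5.90, 6.34 and 5.87. Ldb3, a Z-disc protein, followed genotype instead, with means of 7.22, 5.12 and 2.79 in WT, KEAP1-KO and DKO cultures and 7.29, 5.75, 4.98 and 3.17 in WT A, KEAP1-KO A, KEAP1-KO B and DKO B tumors. Phka1 (a retained intron), Eno3 and Fbp2, of glycogen breakdown, glycolysis and glucose synthesis, had means of 6.64, 7.13 and 5.47 over the cultures and of 6.77, 5.76 and 4.78 over the tumors.

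In DKO tumors against DKO cultures, 10 of the 23 tested genes of the list were higher and 3 lower by limma (27.6% and 15.9% of all rows), with a median difference of 0.38 against 0.23 over all rows tested. Of the 23, 3 (Myh1 and Xirp2 among them) reached the filter's 4 libraries only with the help of DKO tumors 1, 2 and 3, in which they were high, and all 3 were among the 10. Of the other 20, 7 were higher and 3 lower. Against KEAP1-KO tumors of Experiment B, 4 of 20 were higher (Myh1, Xirp2, Des and Fbxo32) and 3 lower (Ldb3, Stac3 and Phka1), beside 4.22% and 4.64% of all rows, with a median of 0.31. Of the 17 that did not need DKO tumors 1, 2 and 3 to pass the filter, 2 were higher (Des and Fbxo32) and 3 lower. Myh1 rose by 2.70 (SE 0.77, limma adjusted p = 0.03782), Xirp2 by 2.85 (SE 0.82, adjusted p = 0.04104), Des by 1.29 (SE 0.37, adjusted p = 0.03847) and Fbxo32 by 0.47 (SE 0.13, adjusted p = 0.03614). Without a filter, Fbxo32 was called (adjusted p = 0.04203), but Myh1, Xirp2 and Des were not (limma adjusted p-values of 0.05606, 0.062 and 0.05406).

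**Figure D3:**
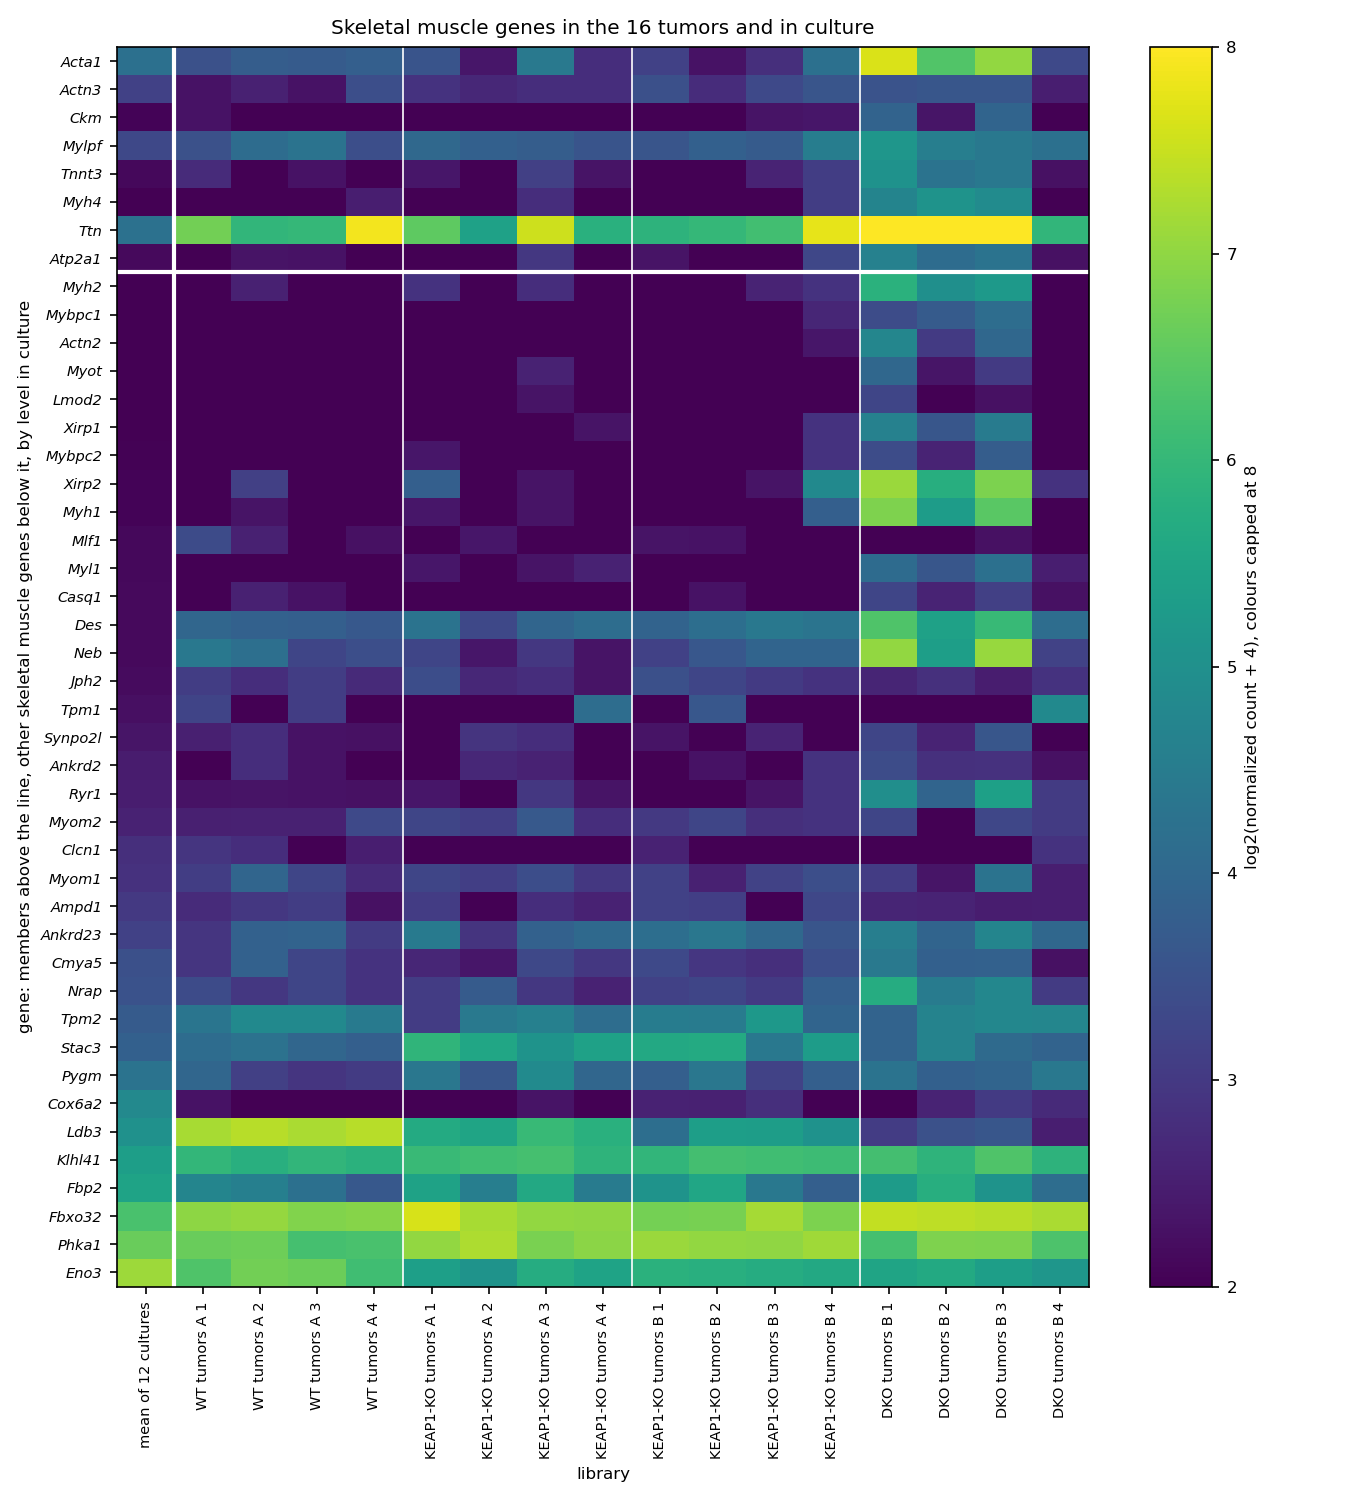
Rows are the 8 members (above the line) and other skeletal muscle genes ordered by their level in culture (below it), columns are the mean of the 12 cultures and the 16 tumors, and colour gives log2(normalized count + 4), capped at 8. DKO tumors 1, 2 and 3 stand out for 5 of the 8 members (not for Actn3, Ckm and Mylpf) and for genes near 2 in culture such as Myh1 and Xirp2, and DKO tumor 4 does not.

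Over all rows that passed the filter and had a symbol (15498), the likeness to the mean of the 5 members that passed it was measured by Pearson's r over the 16 tumors. The points share libraries, depth and the DKO tumors that set most of the range, so r is a description and has no p. Atp2a1, in that mean, and Myh1 and Xirp2, among the rows ranked, passed the filter only with the help of DKO tumors 1, 2 and 3, so the order partly restates the filter. The highest was Myh1 (r = 0.967), and Xirp2 (0.934), Des (0.90), Neb (0.880) and Nrap (0.877) were also among the highest, which are all genes of the sarcomere or its anchors. Lower r were found for Gm44275 (0.872), Cep19 (0.864), Gatad1 (0.858) and Dcp2 (0.839), which are not on the muscle lists. After subtraction of group means, r was 0.738 to 0.931 for these 5 muscle genes and 0.617 to 0.772 for these 4 others. Without DKO tumors 1 and 3, it was 0.648 to 0.913 and 0.542 to 0.828, with Gatad1 and Gm44275 (0.828 and 0.821) above Des, Neb and Nrap. The 2 sets thus overlapped, and the order was not kept. Among the members themselves, each against the mean of the other members that passed the filter, r was 0.964 for Myh4, 0.958 for Atp2a1, 0.957 for Acta1, 0.947 for Tnnt3 and 0.929 for Ttn, against 0.844 for Ckm, 0.720 for Mylpf and 0.623 for Actn3.

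Other cell types were followed through the summed normalized counts of their marker lists. Genes of muscle precursors and regenerating muscle (5 of 15 with a row, Mef2c, Chrna1 and Myh8 among them) summed to 105, 123, 134 and 94.7 in DKO tumors 1 to 4, against 95.6 to 155 in the other tumors. DKO tumor 4 was again the lowest of its group, but the 4 tumors differed by far less here than for the members. The row of slow muscle (Tnnc1, 1 of 8) summed to 7.67, 4.12, 5.67 and 7.67, above the 0.997 to 3.39 of the KEAP1-KO tumors of that experiment, though its difference was not called (0.76, limma adjusted p = 0.08114). These values lay within the 0.0 to 7.69 of the DKO cultures, and WT tumors had 1.8 to 6.79. Cardiac genes (4 of 9) summed to 14.2, 41.2, 17.0 and 39.2, against 2.79 to 16.2 in the KEAP1-KO tumors of Experiment B. WT tumor A4 and DKO culture 1 had cardiac sums of 19.5 each, above those of DKO tumors 1 and 3. Nppb, a natriuretic peptide gene on that list, rose by 1.55 in DKO against KEAP1-KO tumors (limma adjusted p = 0.01676). DKO tumor 4, low for the members, was not low in either sum. Smooth muscle and pericyte genes (9 of 12) summed to 301 to 521 in DKO tumors, against 268 to 540 in the KEAP1-KO tumors of the other flank and 1372 in WT tumor A1.

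Fibroblast genes (10 of 10) summed to 10608 to 14969 in DKO tumors and 2647 to 3488 in the KEAP1-KO tumors beside them, and leukocyte genes (10 of 11) to 5218 to 7663 and 2980 to 3679, with no gene of either list at 0 in a whole tumor group. Among them, a retained intron of Dcn, the gene of a collagen-binding proteoglycan, had a mean of 10.78 over the tumors and 3.61 over the cultures, and a non-coding transcript of Itgam, an integrin gene of myeloid cells, had 9.13 and 2.15. Adipocyte genes (7 of 11) summed to 76.7 to 155 and 52.9 to 84.7, with Cidec at 0 in the KEAP1-KO tumors. Endothelial genes (8 of 8) summed to 1003 to 1194 and 1107 to 1526, and keratinocyte genes (4 of 12) to 54.6 to 81.4 and 59.6 to 158. Fibroblast and leukocyte sums thus moved with genotype, but DKO tumor 4, low for the muscle members, had the second highest fibroblast sum of its group at 12605, and WT tumor A1 had a sum of 12004 with a members' sum of 120.0. DKO tumor 4 had the lowest sum of its group for the leukocyte, adipocyte, keratinocyte and smooth muscle lists. Their part in the differences of the members was not tested.

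**Figure D4:**
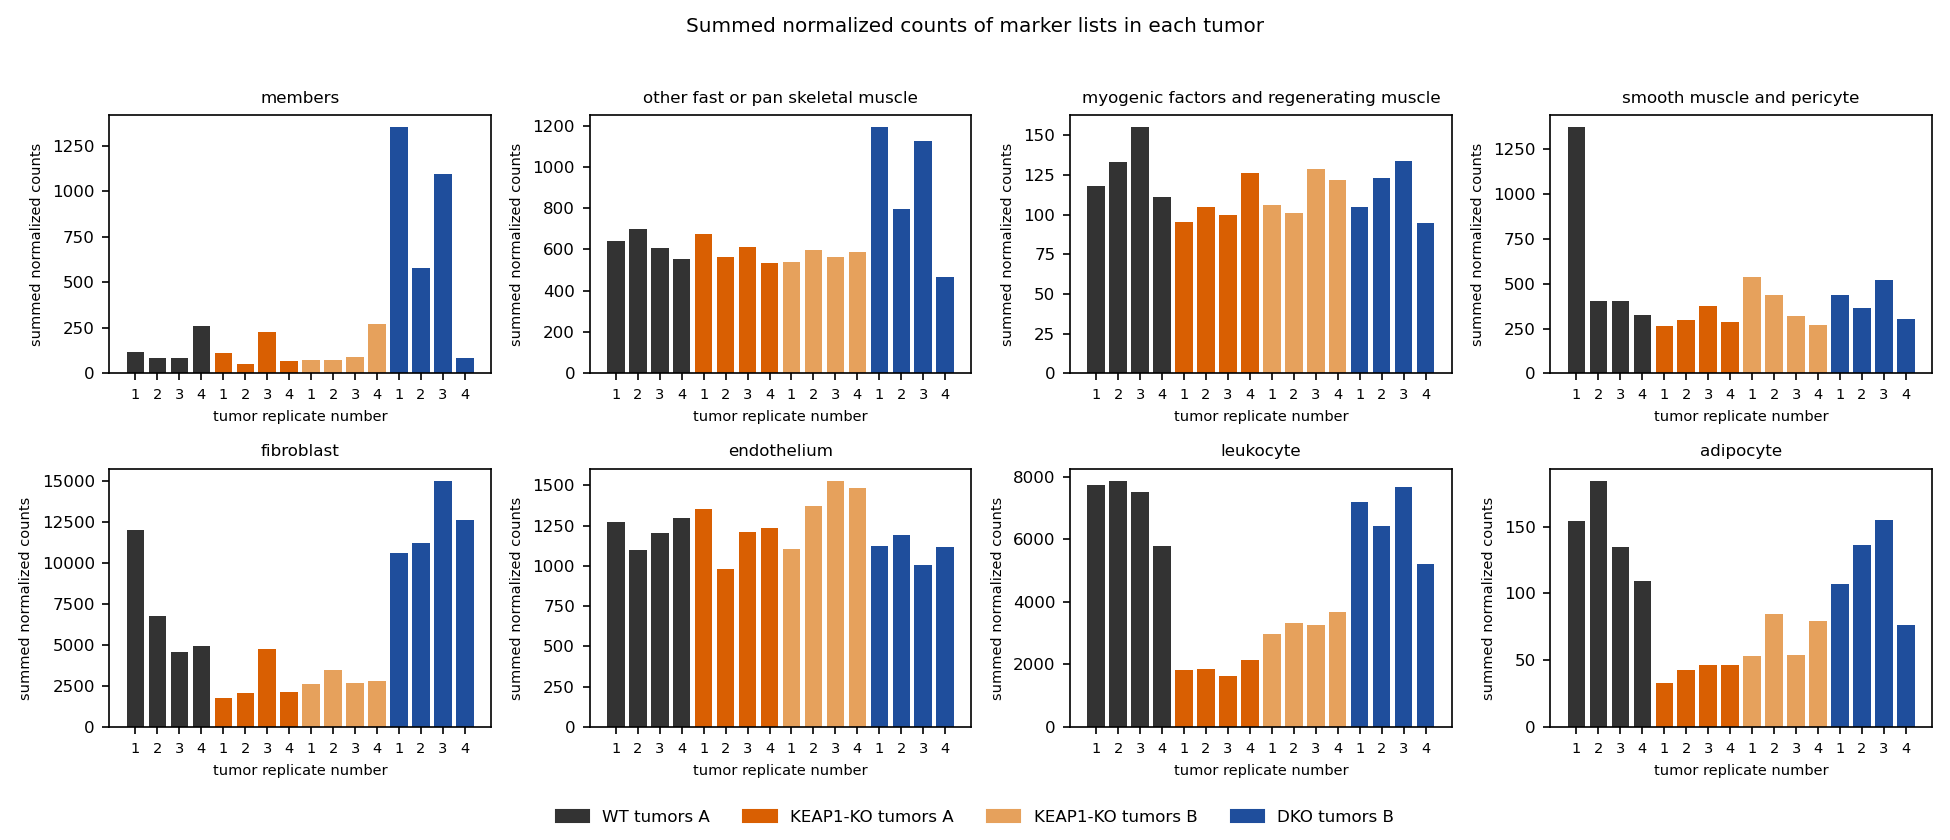
Each panel plots the summed normalized counts of 1 marker list (vertical, linear from 0) as 1 bar per tumor (horizontal, numbered by replicate and coloured by group). The members' sum ranges from 81.9 in DKO tumor 4 to 1350 in DKO tumor 1, while the fibroblast sums of the same 4 tumors lie between 10608 and 14969.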

How the data were processed

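Groups and replicate numbers came from the sample titles. The labels' extraction protocol names liver, in conflict with the titles and the study's methods, which were followed. According to these methods, the authors depleted ribosomal RNA, made strand-specific libraries, ran Salmon (Galaxy) and used iDEP. What the authors deposited is, judging by the numbers, the log2 of a normalized count plus 4, although the study's methods state TPM. Reads recovered from the deposited values numbered 4222363 to 7524265 per library. No other sample columns were present (0).

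Tests used limma 3.58.1 in R 4.3.3 (lmFit, eBayes with trend) on these values, in fits of the 28 libraries, the 16 tumors or the 12 cultures, with Benjamini-Hochberg adjustment over all rows tested, a threshold of 0.05 and a filter of 5 normalized counts in at least 4 libraries. The code was tested on simulated data. Myh4, Tnnt3 and Ckm fail the filter and take their values from the fit without one, as was decided after the data were seen. Subtraction and shares were computed in Python 3.11.15. Named genes are all members, the highest of each marker list by tumor mean (6 of the other muscle genes, up to 4 of each other list), the 10 rows most like the members (of which 1 is not reported here), and Keap1 and Nqo1. Stac3 and Cidec fall outside this rule and were named after their values were seen. Members and lists were chosen with earlier results of these data known. Alternatives were a pseudocount of 1, no filter, a filter of 25, median centring, quantile normalization, library factors taken without the 20 highest rows (rescaling), no trend, robust variances, only the groups compared, array weights, a replicate block and leaving out each library.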

Additional observations from a re-analysis of the deposited data

Results flagged for a closer look

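Among 49 groups of 4 libraries and single members, 12 had a library far from the other 3 by Dixon's criterion. Chance flags about 1 in 20 groups, but in 7 of the 12 the other 3 libraries were at 0 reads, where any read meets the criterion by construction, so the number is not to be read against chance. In tumors, these were Myh4 at 2.51 in WT tumor A4, 2.79 in KEAP1-KO tumor A3 and 3.09 in KEAP1-KO tumor B4, each above a group otherwise at 2.0, and Myh4 at 2.0 in DKO tumor 4, below 4.70 to 5.08. Ttn stood apart at 7.77 in KEAP1-KO tumor B4 and Atp2a1 at 2.98 in KEAP1-KO tumor A3. Actn3 was low at 2.51 in DKO tumor 4, from 2 reads, and Ckm stood at 2.29 in WT tumor A1, from 1 read.

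In culture, the libraries that stood apart were Actn3 at 2.35 in WT culture 3, Tnnt3 at 2.30 in KEAP1-KO culture 1 and Atp2a1 at 2.28 in DKO culture 4, from 1 read each, and Ttn at 4.33 in KEAP1-KO culture 4, from 18 reads.

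Of the rows without a symbol that belong to Ttn, 3 had reads in a single tumor, each time a DKO tumor: Ttn-218 at 3.79 and Ttn-214 at 3.40 in DKO tumor 1, and Ttn-215 at 3.27 in DKO tumor 3. Ttn-214 and Ttn-215 were at 0 in all 12 cultures, and the highest culture for Ttn-218 was at 2.76. The row without a symbol that belongs to Mylpf, the retained intron Mylpf-203, went the other way. Its highest culture was at 4.61, and its highest tumor, KEAP1-KO tumor A3, was at 3.55. DKO tumors 1 to 4 had 2.0, 2.0, 2.86 and 2.0 for this row.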

How the results depend on the processing

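Of 72 differences (8 members in 9 comparisons), 14 were called, and none of these changed direction in any setting run. Of the 58 not called, 25 changed direction in at least 1 setting, none larger than 0.32. Counts of members called among those that passed the filter moved as follows. In WT tumors against cultures (1), 2 were called after quantile normalization, after median centring and with only the 2 groups, and 1 to 2 when libraries were left out. In KEAP1-KO tumors A (1), the counts were 2 after rescaling, 0 without a trend, 0 with robust variances, 2 with only the 2 groups and 0 to 1 with libraries left out. In KEAP1-KO tumors B (1), they were 0 after quantile normalization, 0 after median centring, 2 after rescaling, 2 without a trend, 2 with only the 2 groups and 0 to 2 with libraries left out. In DKO tumors against cultures (4), they were 7 without a filter, 2 with a filter of 25, 2 with only the 2 groups and 2 to 5 with libraries left out. In DKO against KEAP1-KO tumors (1), they were 2 without a filter, 0 with a filter of 25, 0 with only the 2 groups and 0 to 3 with libraries left out. For KEAP1-KO against WT cells (1), the count was 0 with a filter of 25 and 0 to 1 with libraries left out. For DKO against KEAP1-KO cells (1), it was 0 with a filter of 25, 2 after quantile normalization, 0 with only the 2 groups and 0 to 1 with libraries left out. For the NRF2 interaction (0), it was 1 with a filter of 25, 1 after rescaling, 1 with array weights and 0 to 3 with libraries left out. A filter of 25 leaves fewer members to test. The cause of the other moves was not tested.

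When the replicate number entered as a block, in fits of 2 groups, 0 members were called in DKO against KEAP1-KO tumors, 0 in KEAP1-KO against WT cells and 0 in DKO against KEAP1-KO cells. Deviations from group means of same-numbered tumors correlated between -0.0279 and 0.0316, so the numbers were not taken as pairs. Actn3 between DKO and KEAP1-KO tumors differed by -0.00021 after quantile normalization and by -0.14 to 0.30 with libraries left out, and Ttn between KEAP1-KO and WT tumors by -0.73 to 0.10. Depth limits the members with few reads, which include Myh4, Tnnt3, Ckm and Atp2a1 at 0 to 32 reads per library and Actn3 at 1 to 10.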
